A study of Mus musculus with 5 samples.

Results

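Regulators of G-protein signalling (RGS proteins) switch off heterotrimeric G proteins, and 10 of the genes that encode them are described here: Rgs2, Rgs3, Rgs4, Rgs10, Rgs12, Rgs14, Rgs16, Rgs17, Rgs19 and Rgs20. They were taken by gene symbol from 46959 symbols in the count files, and all 10 were found. They were chosen by symbol, with the fold changes and adjusted p-values of the comparison below already known, so their values in that comparison are a description and support nothing on their own. RNA was sequenced from D4M.3A cells, a mouse melanoma line of C57BL/6 origin with mutant Braf, at passages 7 to 12. The reference group carried the retroviral vector pBABE (n = 2 libraries, genotype given as control), and the other group carried caMNK, a constitutively active MNK1 (n = 3 libraries). MNK1 is the kinase that phosphorylates the cap-binding factor eIF4E. The labels name neither the promoter nor the species of the introduced kinase, nor whether each line was 1 clone. Group and cell line are the same thing here, so an effect of the kinase and another difference between both lines cannot be told apart. The libraries are called biological replicates with no word on separate cultures, so p-values measure the spread between libraries.

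The labels were checked first. Mknk1, the gene of the introduced kinase, stood at 15.2 and 16.7 CPM with pBABE and at 167, 155 and 168 CPM with caMNK, where CPM are counts scaled to a common library size (log2 fold change 3.36, SE 0.104, edgeR adjusted p = 4.81e-06). Library totals ran from 27827199 to 48794336 counts. Of 10 melanocyte markers, 7 were too low to test: Tyrp1, Dct and Slc45a2 had 0 counts in every library, Tyr and Mlana had 0 to 2 and Sox10 was at 0 in 4 of 5 libraries. Gpnmb was present at 130 to 216 CPM and Mitf at 4.35 to 6.48 CPM, and no marker of this list passed the test. Counts cover whole gene spans, introns included, and a read in an overlap of 2 genes is counted for both.

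A G protein is turned on when a receptor makes its alpha subunit exchange GDP for GTP, and it is turned off when the alpha subunit cleaves that GTP. RGS proteins speed up the cleavage through a shared RGS domain and so shorten the signal. They form subfamilies. RZ proteins (Rgs17, Rgs19 and Rgs20) act on alpha subunits of the Gi class, including Gz, and carry a string of cysteines that is palmitoylated. R4 proteins are mostly small and act on Gi and Gq, R12 proteins include large scaffolds with further domains, and R7 proteins work as a complex with Gnb5.

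The cysteine string of the RZ subfamily, to which both members called higher in caMNK belong, could be read in the coding sequences of GENCODE M21 transcripts. The 20 codons with the most cysteine codons are shown for each RZ gene, 5′ to 3′, with the cysteine codons in capitals.
Rgs20 (codons 52 to 71): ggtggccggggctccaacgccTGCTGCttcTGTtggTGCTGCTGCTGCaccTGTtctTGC
Rgs17 (codons 21 to 40): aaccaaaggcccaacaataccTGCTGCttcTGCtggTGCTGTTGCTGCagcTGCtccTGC
Rgs19 (codons 30 to 49): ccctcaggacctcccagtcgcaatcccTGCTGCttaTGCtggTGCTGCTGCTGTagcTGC
The window held 9 cysteine codons in Rgs20, 9 in Rgs17 and 8 in Rgs19, against 1 to 3 in the richest window of the other 18 RGS genes. Over the aligned coding bases, Rgs17 and Rgs20 were identical at 71.2% of 612 positions. Rgs19 was identical to Rgs20 at 66.6% of 629 positions and to Rgs17 at 66.6% of 604 positions. The string is thus present in both members that rose and in Rgs19, which did not pass the test.

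A second sequence feature marks 3 R4 genes. Their second codon encodes cysteine, shown in capitals in the first 30 coding bases. Proteins that begin with methionine and cysteine can be degraded through the N-degron pathway, and RGS4, RGS5 and RGS16 are known substrates with this start. Protein was not measured here, so RNA levels of these genes need not follow their proteins.
Rgs4: atgTGCaaaggacttgcaggtctgccggct
Rgs5: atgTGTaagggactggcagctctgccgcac
Rgs16: atgTGCcgcaccctagccaccttccccaac
They were 3 of 21 RGS genes with such a start. Rgs5 is no member of the group of 10 but is given beside it because of its change.

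Promoter sequences were at hand for 8 of the 10 members, not for Rgs14 and Rgs20. The 250 bases before the RefSeq start of Rgs17 (GRCm38.p6, chr10:5922401-5922650, minus strand) are shown because Rgs17 is, beside Rgs20, the member called higher, and those of Rgs5 (chr1:169655251-169655500, plus strand) for comparison.
Rgs17: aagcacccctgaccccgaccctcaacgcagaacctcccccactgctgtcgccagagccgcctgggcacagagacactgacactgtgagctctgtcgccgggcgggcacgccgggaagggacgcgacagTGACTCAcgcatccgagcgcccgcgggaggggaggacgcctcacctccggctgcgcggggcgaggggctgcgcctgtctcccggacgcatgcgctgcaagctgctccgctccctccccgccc
Rgs5: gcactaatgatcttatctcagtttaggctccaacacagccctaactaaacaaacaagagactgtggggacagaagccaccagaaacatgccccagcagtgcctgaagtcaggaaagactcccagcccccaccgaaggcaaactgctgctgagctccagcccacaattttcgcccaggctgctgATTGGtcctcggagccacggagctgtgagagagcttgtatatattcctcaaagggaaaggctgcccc
Capitals mark an AP-1 motif (TGANTCA) in Rgs17 and a CCAAT box on the other strand in Rgs5. Both strands were searched for the CRE (TGACGTCA), the AP-1 motif, the EGR1 motif (GCGTGGGCG), the ETS core (CCGGAAG), the GC box (GGGCGG), the E-box (CACGTG) and the CCAAT box (CCAAT). Rgs17 held 1 AP-1 motif and 2 GC boxes, and Rgs5 held 1 CCAAT box. The motifs were not confined to genes that were called higher. Among members not called, Rgs12 also held an AP-1 motif, and Rgs2, Rgs4 and Rgs16 held a CCAAT box. GC boxes were found in Rgs2, Rgs3, Rgs10, Rgs12, Rgs16 and Rgs19. Over 32851 RefSeq promoters of the same length, 6.75% held the AP-1 motif, 32.7% the GC box and 33.8% the CCAAT box. The remaining motifs were found in 1.55% (CRE), 0.536% (EGR1), 6.91% (ETS core) and 6.02% (E-box) of promoters. These matches are letters in a window, with no measure of binding.

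Of the 10 members, 9 were abundant enough to test and Rgs4 was not. Rgs20 and Rgs17 rose in caMNK at an adjusted p under 0.05, and 0 members fell. In bulk RNA, more cells that express a gene and more RNA per cell cannot be told apart. The background was 4.42% of 17026 tested genes called higher and 3.52% called lower, so that 55.7% of all calls were higher (68.2% with total-count scaling). Without adjustment the counts at p under 0.05 were again 2 and 0, beside 13.8% and 12.1% of all tested genes, and DESeq2 and limma-voom each called 2 higher and 0 lower. The libraries of the groups did not overlap for 3 members higher in caMNK (Rgs20, Rgs17 and Rgs2) and 2 lower (Rgs3 and Rgs14), where the background shares are 22.3% and 22.6% (44.9% in either direction). The remaining 4 tested members overlapped. The median log2 fold change of the tested members was 0.018, against −0.0021 for all tested genes.

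**Figure D1:**
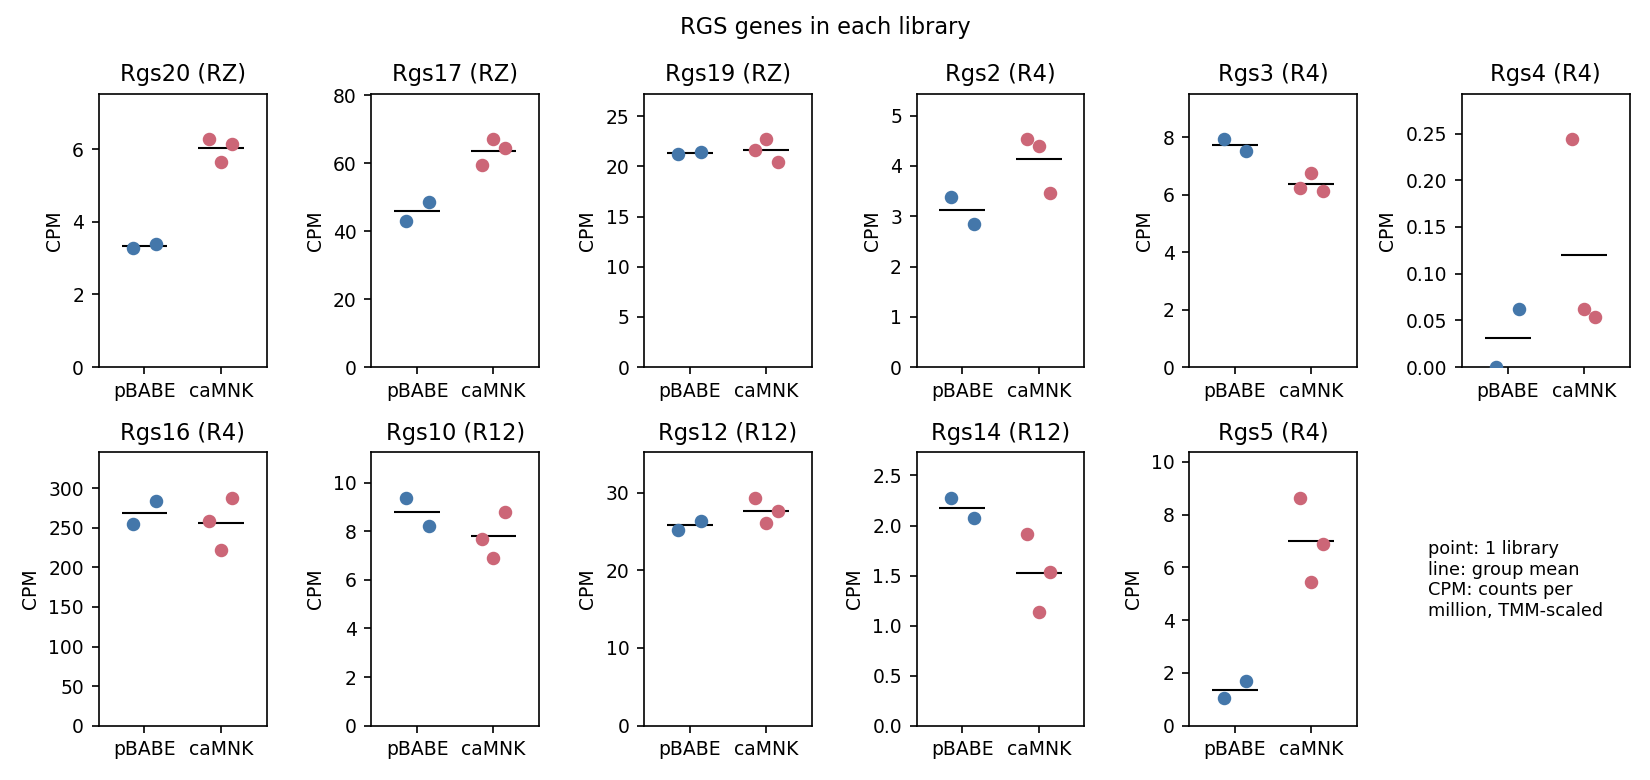
CPM (TMM-scaled, y axis from 0) of the 10 members and Rgs5 in each library (points), with the mean of each group (line). The 3 caMNK points of Rgs20 (5.66 to 6.27 CPM) and of Rgs17 (59.5 to 67.1 CPM) lie above both pBABE points, while Rgs19, Rgs16, Rgs10 and Rgs12 overlap.

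Rgs20, an RZ protein known for its action on Gz and Gi, had the largest rise among the members. It lies at chr1:4909576-5070285 on the minus strand (mm10), with 4239 exon bases in a span of 160710. It measured 3.29 and 3.38 CPM in pBABE and 6.27, 5.66 and 6.13 CPM in caMNK. Every caMNK library was above both pBABE libraries, and within each group the libraries were close together. The means were 3.33 ± 0.0645 CPM (SD, n = 2) and 6.02 ± 0.324 CPM (SD, n = 3), a fold of 1.80 (log2 fold change 0.85, SE 0.142, edgeR adjusted p = 0.0126). By p-value it was number 336 of the tested genes. These levels rest on few reads: 137 and 109 counts in pBABE and 180, 275 and 227 in caMNK.

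The start of Rgs20 overlaps the start of Atp6v1h, a subunit of the vacuolar proton pump encoded on the opposite strand, by 268 bases, of which 127 are exon in both. Reads there are counted for both genes. Atp6v1h had 70.6 and 70.7 CPM in pBABE and 75.6, 79.7 and 71.5 CPM in caMNK (log2 fold change 0.10, adjusted p = 0.522), so it had many more reads than Rgs20 and did not pass the test. If the reads of Atp6v1h were spread evenly over its 9746 exon bases, 38.3 and 29.7 counts of the pBABE libraries and 28.3, 50.5 and 34.5 counts of the caMNK libraries would fall in those 127 bases. These figures are below the counts of Rgs20 in every library, but they set no upper limit. The 9746 bases merge the exons of all annotated transcripts, and reads from a shorter transcript that holds the 127 bases would place more counts there. The actual number of shared reads is not known.

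The call of Rgs20 depended on the libraries used, and so did the calls over all genes. Without caMNK replicate 1, 175 genes were called higher, against 753 with all libraries. Leaving out a pBABE replicate left a single pBABE library, with no spread of its own. Its log2 fold change stayed between 0.82 and 0.90 with any 1 library left out, but the call was lost without pBABE replicate 1 (adjusted p = 0.180), pBABE replicate 2 (0.123) or caMNK replicate 1 (0.0661). It passed without caMNK replicate 2 (0.000318) and without caMNK replicate 3 (0.0134). For a gene whose groups do not overlap, the kept direction follows from the values themselves.

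Rgs17, the closest relative of Rgs20, was the more abundant gene per kilobase of exons (5.52 against 0.786 CPM per kilobase in pBABE) and had the smaller log2 fold change. It lies at chr10:5825663-5922400 on the minus strand. Its libraries measured 43.0 and 48.7 CPM in pBABE and 59.5, 67.1 and 64.4 CPM in caMNK, and again the groups did not overlap. The means were 45.8 ± 4.07 CPM (SD, n = 2) and 63.7 ± 3.86 CPM (SD, n = 3), a fold of 1.39 (log2 fold change 0.48, SE 0.0987, edgeR adjusted p = 0.0255, number 741 by p-value). Leaving out pBABE replicate 1 gave a log2 fold change of 0.38 (adjusted p = 0.333), leaving out pBABE replicate 2 gave 0.56 (0.133), and leaving out caMNK replicate 1 gave an adjusted p of 0.0740, so the call was lost in each case. It was kept without caMNK replicate 2 (adjusted p = 0.000904) and caMNK replicate 3 (0.0232).

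Rgs19, the third RZ gene (chr2:181688419-181693977, minus strand), acts on Gi subunits and binds the scaffold Gipc1. It measured 21.2 and 21.5 CPM in pBABE and 21.6, 22.7 and 20.4 CPM in caMNK. The groups overlapped, and the log2 fold change was 0.018 (SE 0.0984, adjusted p = 0.930). It was −0.0037 without pBABE replicate 1 and −0.023 without caMNK replicate 2, so its direction was not settled. The RZ genes thus had log2 fold changes of 0.85, 0.48 and 0.018, and the differences between these genes were not tested.

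**Figure D2:**
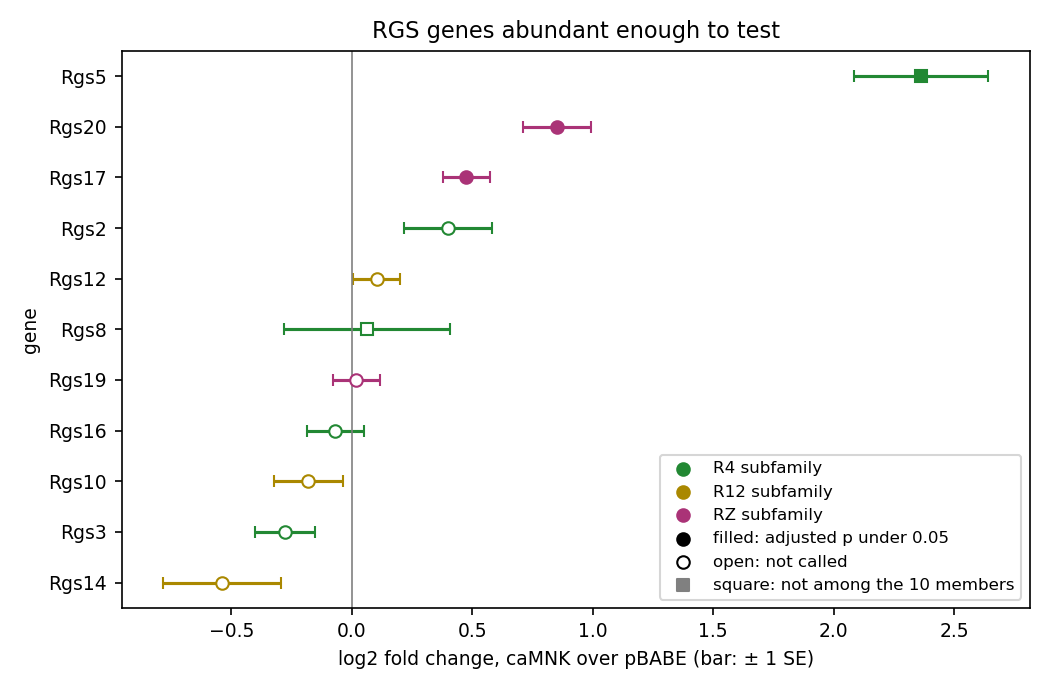
Log2 fold change of caMNK over pBABE (x axis, bars ± 1 SE) of the 9 tested members and of Rgs5 and Rgs8 (squares), coloured by subfamily, with filled symbols for an adjusted p under 0.05. Rgs5 (2.36), Rgs20 (0.85) and Rgs17 (0.48) are filled, and the other 8 genes lie between −0.54 and 0.40.

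Among the R4 members, none passed the test. Rgs16, an inhibitor of Gi and Gq signals and the most abundant RGS gene per length (chr1:153740349-153745468, plus strand), measured 254 and 283 CPM in pBABE and 259, 222 and 288 CPM in caMNK. Its highest and its lowest library were both caMNK libraries. The log2 fold change was −0.07 (SE 0.119, adjusted p = 0.769) and turned positive without pBABE replicate 2 (0.0078) or without caMNK replicate 2 (0.025). The transcript Gm28513 overlaps Rgs16 by 1917 bases on the opposite strand and had 84.7% as many counts as Rgs16, so the reads of this pair cannot be told apart. Gm28513 showed a log2 fold change of −0.10 (adjusted p = 0.652).

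Rgs2, the R4 protein best known for blocking Gq (chr1:143999338-144004161, minus strand), measured 3.38 and 2.85 CPM in pBABE and 4.53, 4.40 and 3.46 CPM in caMNK. All caMNK libraries were above both pBABE libraries, but the lowest of them (3.46 CPM) was only just above the higher pBABE library (3.38 CPM). The log2 fold change of 0.40 (SE 0.183) had an adjusted p of 0.211. Rgs3, which binds Gi and Gq subunits (chr4:62559847-62704001, plus strand), measured 7.94 and 7.53 CPM in pBABE and 6.24, 6.75 and 6.13 CPM in caMNK. Its groups did not overlap, with caMNK on the lower side, and the log2 fold change was −0.28 (SE 0.124, adjusted p = 0.201). Rgs4, a short-lived inhibitor of Gi and Gq (chr1:169741477-169747642, minus strand), was at the edge of detection. It had 0 and 2 counts in pBABE and 7, 3 and 2 in caMNK, and the limit that a count of 0 allows, 3 counts, was 0.0720 CPM in the library without a read. The 7 counts of caMNK replicate 1 were 0.244 CPM, and no fold is given.

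The R12 members were not past the threshold either. Rgs10, a small R12 protein acting on Gi (chr7:128373621-128418758, minus strand), measured 9.38 and 8.21 CPM in pBABE and 7.67, 6.91 and 8.78 CPM in caMNK (log2 fold change −0.18, SE 0.144, edgeR adjusted p = 0.476). Rgs12, a large scaffold with a GoLoco motif that binds inactive Gi subunits (chr5:34949445-35039644, plus strand), measured 25.2 and 26.4 CPM in pBABE and 29.4, 26.1 and 27.6 CPM in caMNK (log2 fold change 0.10, SE 0.0969, edgeR adjusted p = 0.550). Groups overlapped for both genes. Gm43791 lies within Rgs12 on the opposite strand over 1576 bases and had 35.8% as many counts (log2 fold change 0.34, adjusted p = 0.121), and reads in the overlap cannot be assigned. Rgs14, which also carries a GoLoco motif and binds Ras proteins (chr13:55369732-55384687, plus strand), measured 2.28 and 2.08 CPM in pBABE and 1.92, 1.13 and 1.54 CPM in caMNK. The caMNK libraries were all lower but widely spread, and the highest of them (1.92 CPM) was close to the lower pBABE library (2.08 CPM). The log2 fold change of −0.54 (SE 0.245) had an adjusted p of 0.207. With 55 to 95 counts per library, Rgs14 had the fewest reads of the tested members.

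Outside the group of 10, Rgs5 changed most. Rgs5, an R4 gene best known from pericytes (chr1:169655501-169695813, plus strand), measured 1.03 and 1.70 CPM in pBABE and 8.64, 5.43 and 6.89 CPM in caMNK. The lowest caMNK library was well above the higher pBABE library, and the counts were 43 and 55 against 248, 264 and 255. The means were 1.37 ± 0.476 CPM (SD, n = 2) and 6.99 ± 1.61 CPM (SD, n = 3), a fold of 5.15 (log2 fold change 2.36, SE 0.279, edgeR adjusted p = 0.00523). Without pBABE replicate 1 the value was 2.01 and the call was lost (adjusted p = 0.0907), and it was kept with each other library left out. Of 10 pericyte and fibroblast markers, 6 were tested, Col1a2 rose, Col1a1 fell and 4 did not pass. The groups did not overlap for 2 of the 6 on the higher side and 3 on the lower side. Over all tested genes these shares were 22.3% and 22.6%, and 4.42% were called higher and 3.52% lower. The channel genes Kcnj8 and Abcc9 had 0 counts in every library, while Pdgfrb and Cspg4 of the same list were present. Pdgfrb measured 64.1 and 55.0 CPM in pBABE and 44.2 to 57.5 CPM in caMNK. Cspg4 measured 176 and 199 CPM in pBABE and 152 to 167 CPM in caMNK. The summed level of the list was 621 and 583 CPM in pBABE and 567 to 674 CPM in caMNK, and its part in the value of Rgs5 was not tested.

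The other RGS genes had few or no reads. Besides Rgs5, Rgs8 could be tested, at 0.372 to 0.568 CPM and a log2 fold change of 0.06 (SE 0.343, adjusted p = 0.930). The remaining 9 genes had 0 to 43 counts summed over all libraries, and Rgs1, Rgs13 and Rgs21 had none. No R7 gene was testable: Rgs9 had 43 summed counts, Rgs7 had 7, Rgs6 had 6 and Rgs11 had 5. Of 21 RGS genes, 11 lie on chromosome 1, among them Rgs2, Rgs4, Rgs16 and Rgs20.

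Levels were compared between genes per kilobase of merged exons. In pBABE the order was Rgs16 (114.9 CPM per kilobase), Rgs19 (9.56), Rgs17 (5.52), Rgs10 (5.14), Rgs12 (3.04), Rgs2 (0.859), Rgs20 (0.786), Rgs3 (0.716), Rgs14 (0.514) and Rgs4 (0.0100). On this scale Rgs17 and Rgs10 overlapped in pBABE, at 5.18 and 5.87 against 5.48 and 4.80 CPM per kilobase. In caMNK they were apart, with Rgs17 at 7.17 to 8.09 and Rgs10 at 4.04 to 5.13 CPM per kilobase. Rgs20 likewise overlapped Rgs2 in pBABE (0.775 and 0.797 against 0.933 and 0.786 CPM per kilobase). In caMNK every library had more Rgs20 (1.33 to 1.48) than Rgs2 (0.954 to 1.25 CPM per kilobase). Because introns are counted, the scale matters for genes with long introns. Per kilobase of span, Rgs20 measured 0.0207 CPM in pBABE and was next to last of the 10, and Rgs16 stayed highest at 52.5 CPM per kilobase. Neither shift between the groups was seen on the span scale. Rgs20 was below Rgs2 in pBABE (0.0207 against 0.646) and in caMNK (0.0375 against 0.856 CPM per kilobase). Rgs17 was already above Rgs10 in pBABE, at 0.444 and 0.504 against 0.208 and 0.182 CPM per kilobase.

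**Figure D3:**
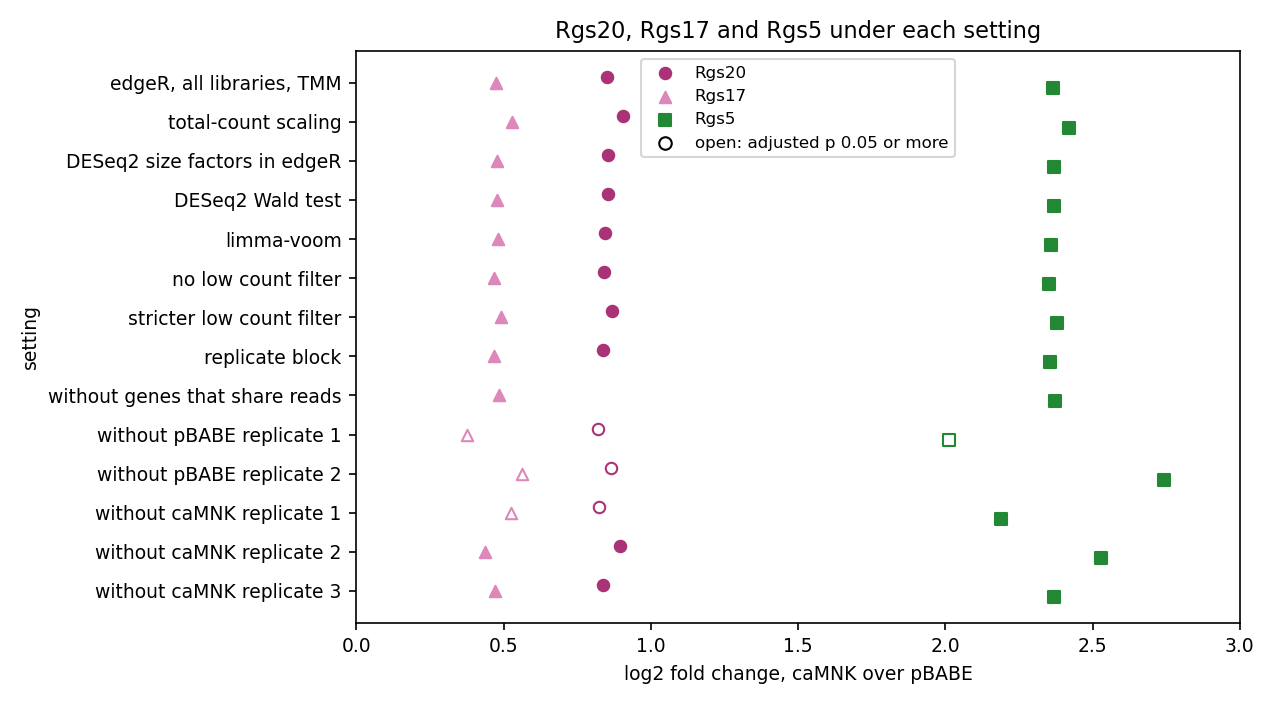
Log2 fold change of caMNK over pBABE (x axis) of Rgs20, Rgs17 and Rgs5 under each way of analysis (y axis), with open symbols where the adjusted p was 0.05 or more. Open symbols appear only where a library is left out, in 3 such fits for Rgs20 and Rgs17 and in 1 for Rgs5, and Rgs20 has no value where genes that share reads are omitted.

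The 5 genes whose profile over the 5 libraries was most like that of Rgs20 were Snhg12, Cxcr4, Rasgrf1, Plekhn1 and Leng8. Likeness was the root mean square difference of log2 CPM, each gene centred on its own mean, over 11560 candidate genes. It was 0.0295 for Snhg12, a snoRNA host gene, and 0.0351 for Cxcr4, the chemokine receptor gene. Rasgrf1, a Ras exchange factor gene, was at 0.0400, Plekhn1, which shares reads with Mir7658, at 0.0419 and Leng8, which shares reads with Leng9, at 0.0423. Their log2 fold changes were 0.87, 0.86, 0.79, 0.85 and 0.80. These genes were picked for their likeness, so their own p-values are not given as support.

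The rest of the heterotrimeric G protein system was covered by lists that hold 140 genes outside the 10 members, other RGS genes included. Of these, 89 were tested, 8 rose (8.99%) and 0 fell, beside 4.42% and 3.52% of all genes. At an unadjusted p under 0.05 the counts were 18 and 9, beside 13.8% and 12.1% of all tested genes. By the other tests, limma-voom called 8 and 0, and DESeq2 called 8 higher and 1 lower (Gng12). The median log2 fold change was 0.0059. The 8 genes were Rgs5, Gnai1, Gng8, Adcy8, Cxcr4, Lpar6, Ackr3 and Adra1b.

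**Figure D4:**
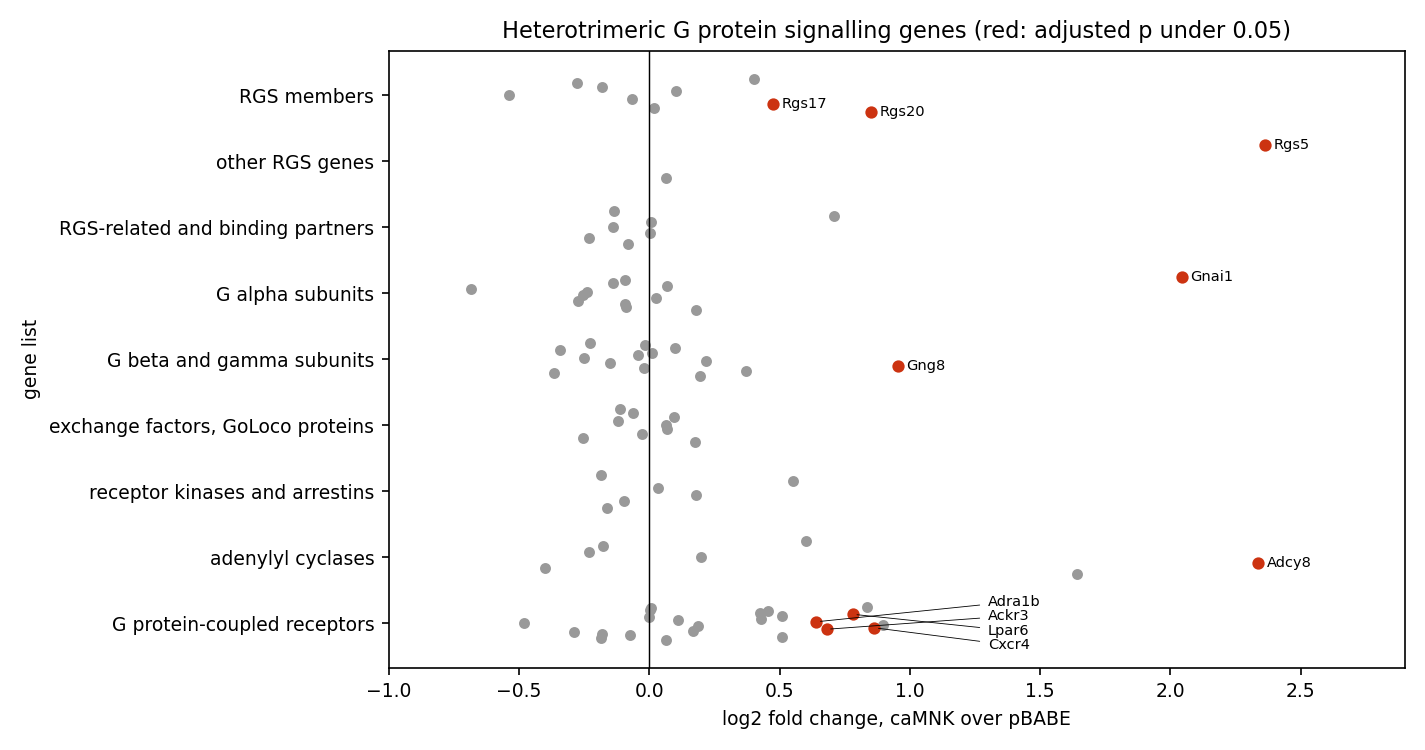
Log2 fold change of caMNK over pBABE (x axis) of the tested genes of the lists shown (y axis), with genes at an adjusted p under 0.05 in red and named. Most genes of the system lie near 0, and all 10 red points are on the higher side, from Rgs17 (0.48) to Rgs5 (2.36).

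Alpha subunits are the direct targets of RGS proteins. Of 16, 12 were tested and 1 rose, beside 4.42% of all tested genes. That gene was Gnai1, which encodes a Gi subunit. It measured 0.408 and 0.496 CPM in pBABE and 2.13, 1.75 and 1.73 CPM in caMNK (log2 fold change 2.04, SE 0.259, edgeR adjusted p = 0.00618), with 16 to 85 counts per library. Every caMNK library was above both pBABE libraries. The call was lost without pBABE replicate 1 (adjusted p = 0.112) and without pBABE replicate 2 (0.0610). The most abundant alpha subunit gene per length, Gnai2, measured 504 and 492 CPM in pBABE and 459, 446 and 494 CPM in caMNK (log2 fold change −0.10, adjusted p = 0.529). Gnaz, which encodes the Gz subunit that Rgs20 and Rgs17 are known to act on, measured 1.32 and 0.930 CPM in pBABE and 0.662, 0.576 and 0.892 CPM in caMNK (log2 fold change −0.69, adjusted p = 0.185). Gnaz is named outside the naming rule, and its counts equal those of Rsph14, which lies over it on the opposite strand.

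The beta and gamma subunits that are freed with the alpha subunit had 14 tested genes of 17. Gng8, a gamma subunit gene, rose from 1.08 and 1.05 CPM to 1.85, 2.00 and 2.35 CPM (log2 fold change 0.95, SE 0.215, edgeR adjusted p = 0.0336). Its call was lost without pBABE replicate 1 (adjusted p = 0.266), pBABE replicate 2 (0.224) or caMNK replicate 1 (0.0839). Gnb2, the most abundant gene of the list per length, showed a log2 fold change of −0.02 (adjusted p = 0.949), which turned to 0.04 with total-count scaling, and shares reads with Epo and Mir6418. Among RGS-related proteins and RGS binding partners, 7 of 11 were tested and none passed. Gipc1, the partner of Rgs19, showed a log2 fold change of −0.08 (adjusted p = 0.782).

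Alpha exchange factors and GoLoco proteins keep the subunit cycle going without a receptor. All 9 were tested, none passed, and the libraries of the groups overlapped for each of them. Ric8 (also Ric8a), the chaperone and exchange factor of alpha subunits, showed a log2 fold change of −0.11 (adjusted p = 0.551). Receptor kinases and arrestins, which silence the receptor itself, had 6 tested genes of 8 and no call. Grk6, the most abundant per length, showed a log2 fold change of 0.18 (adjusted p = 0.386; 0.28 and 0.00604 without caMNK replicate 2).

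Among effectors, 7 of 10 adenylyl cyclases were tested and 1 rose, beside 4.42% of all tested genes. Adcy8, a calcium-stimulated cyclase gene, measured 0.336 and 0.434 CPM in pBABE and 2.13, 2.02 and 1.68 CPM in caMNK (log2 fold change 2.34, SE 0.270, edgeR adjusted p = 0.00504). It had 14 counts in each pBABE library and shares its span with Gm21798, and the call was lost without pBABE replicate 1 (adjusted p = 0.0938). Adcy6, the most abundant cyclase gene per length, showed a log2 fold change of −0.23 (adjusted p = 0.229) and shares reads with Gm29331.

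Receptors held 4 of the 8 calls. Of 47 listed G protein-coupled receptor genes, 23 were tested, 4 rose and 0 fell, beside 4.42% and 3.52% of all tested genes. A positive log2 fold change was found for 17 of the 23 (median 0.19), beside 49.6% of all tested genes. Cxcr4, the receptor of the chemokine CXCL12, rose from 22.4 and 24.6 CPM to 44.0, 39.9 and 44.4 CPM (log2 fold change 0.86, SE 0.09997, edgeR adjusted p = 0.00506). Ackr3, which takes up the same chemokine, rose from 5.88 and 6.63 CPM to 10.4, 10.4 and 9.22 CPM (log2 fold change 0.68, adjusted p = 0.0193). The groups were clear of each other for both receptors of CXCL12, as they were on the higher side for 22.3% of all tested genes. Lpar6, a lysophosphatidic acid receptor gene, rose from 20.5 and 21.7 CPM to 38.7, 39.0 and 30.9 CPM (log2 fold change 0.78, adjusted p = 0.0113), and it lies within Rb1, whose reads it shares. Adra1b, an alpha-adrenergic receptor gene, rose from 8.59 and 7.81 CPM to 13.9, 11.2 and 13.4 CPM (log2 fold change 0.64, adjusted p = 0.0268). No receptor call survived without pBABE replicate 1 or without pBABE replicate 2: the adjusted p of Cxcr4 was 0.112 and 0.0610, that of Lpar6 0.165 and 0.101, that of Ackr3 0.263 and 0.125, and that of Adra1b 0.200 and 0.239. Without caMNK replicate 1, Cxcr4 passed (0.0372) and the other three did not (0.0597, 0.0900 and 0.115).

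Some other measures moved with the groups in the same libraries, while the summed macrophage and leukocyte markers overlapped between the groups. Of 10 tested mitochondrial mRNAs, 6 rose, with a summed level of 12290 and 13533 CPM in pBABE and 18772 to 21665 CPM in caMNK. Listed genes mt-Co2, mt-Atp6 and mt-Atp8 had 1 to 7 counts per library, and mt-Co3 had 61 to 78 (log2 fold change −0.17). These genes add almost nothing to the sum. Of 7 tested nuclear non-coding RNAs, 4 rose (summed level 578 and 596 CPM, against 879 to 1146 CPM). The share called higher among all tested genes was 4.42%. Endothelial markers summed to 5.52 and 9.51 CPM in pBABE and 3.73 to 4.04 CPM in caMNK, with Cdh5 lower (log2 fold change −1.43, adjusted p = 0.0141) and Tie1 at 0. The other tested endothelial markers, Tek (0.82, adjusted p = 0.213) and Pecam1 (1.07, adjusted p = 0.264), had positive values. Macrophage and leukocyte markers summed to 13.6 and 15.2 CPM in pBABE and 13.8 to 18.6 CPM in caMNK, with none of 3 tested genes past the threshold and Cd3e at 0. Most of that sum was Csf1r (10.7 to 13.7 CPM). Hmgxb3 overlaps Csf1r by 873 bases on the opposite strand and had 434% as many counts, so reads in the overlap cannot be assigned. Fcer1g (log2 fold change 1.44, edgeR adjusted p = 0.0620) and Cd68 (0.68, adjusted p = 0.144) were higher in every caMNK library than in both pBABE libraries. Their part in the values of the RGS genes was not tested.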

How the data were processed

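The authors deposited raw read counts per gene, 1 table per library, without normalization. The submitters' processing notes list the aligner STAR 2.5.3, the counter featureCounts 1.5.3, Trimmomatic 0.32 for trimming, FastQC 0.11.2, DESeq2 and SAMtools 0.1.19, all with build mm10. How featureCounts was set, and with which annotation, is not given in the sources used here. Against GENCODE M21, the deposited length of 21715 of 27834 multi-exon genes equalled the genomic span and 0 equalled the summed exons, so introns are counted. Of 156 protein-coding genes with 1000 or more counts that lie inside one of the opposite strand, the enclosing gene had at least the same count for 153, so reads in overlaps were taken as counted for both genes whatever the strand.

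Counts were compared with edgeR 4.0.16 in R 4.3.3 (filterByExpr by group, TMM, robust quasi-likelihood F test on all 5 libraries, group as the only term), with Benjamini-Hochberg adjustment over 17026 genes and a threshold of 0.05. "Rose" and "fell" mean past it. Log2 fold changes are caMNK over pBABE, each SE is its log2 fold change without sign over the root of F, and CPM are TMM-scaled. DESeq2 1.42.0, limma 3.58.1, scaling, filters and left-out libraries were alternatives. No pair of libraries agreed within sampling noise (chi-square per degree of freedom at least 4.59). Within caMNK, replicate 2 stood at 15.2 from replicate 1 and 33.0 from replicate 3, while replicates 1 and 3 stood at 6.29. Pairs across the groups ran from 21.5 to 39.6. These figures come from raw counts and grow with read depth. Because caMNK replicate 2 was the deepest library (48794336 counts) and caMNK replicate 1 the shallowest (27827199), they do not rank pairs by likeness alone. Without caMNK replicate 2, 2325 genes were called higher and 2617 lower.

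Members and lists were chosen with earlier results of these data known. Named are all members, Mknk1, up to 4 called genes and the most abundant gene per length of span of each list, and the 5 genes most like Rgs20 among tested genes at a mean log2 CPM of at least 0, without overlap with Rgs20 and not predicted genes or pseudogenes. Overlapping genes are named where their counts reach 10% of a gene's own. A few items, 1 effector list and the most abundant receptor gene among them, are not reported here. Coding sequences are of complete GENCODE M21 transcripts, and promoters of RefSeq GRCm38.p6.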

Additional observations from a re-analysis of the deposited data

How the results depend on the processing

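Over all genes, 753 were called higher and 599 lower, against 1591 and 1330 without a low count filter, 1477 and 1231 with a replicate block and 412 and 305 without genes that share reads. With total-count scaling the counts were 999 and 465. With 1 library left out the counts ran from 11 to 2325 higher and from 12 to 2617 lower. Members called higher numbered 2, and 1 without genes that share reads, where Rgs20 is not in the fit, and 0 to 2 with 1 library left out. Members called lower numbered 0 under each of these settings. For the other G protein genes, 8 were called higher, 13 without a low count filter and 0 to 15 with 1 library left out. None was lower, against 1 by DESeq2, 2 without a low count filter, 3 with a replicate block and 0 to 11 with 1 library left out.

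With all libraries, Rgs20 kept its call under 7 alternatives (0.84 to 0.91, adjusted p 0.00011 to 0.0168) and Rgs17 under 8 (0.47 to 0.53, adjusted p 0.000775 to 0.0284). Leaving out 1 library gave 0.82 to 0.90 for Rgs20, 0.38 to 0.56 for Rgs17, −0.16 to 0.025 for Rgs16, −0.023 to 0.060 for Rgs19, −0.23 to 0.059 for Gipc1 and −0.13 to 0.085 for Gnb2. Rgs16 turned positive without pBABE replicate 2 (0.0078) or caMNK replicate 2 (0.025), and Rgs19 turned negative without pBABE replicate 1 (−0.0037) or caMNK replicate 2 (−0.023). Gipc1 turned to 0.059 and Gnb2 to 0.085 without caMNK replicate 2, and Gnb2 to 0.039 with total-count scaling, which moved the median of all genes to 0.05. The cause of these changes was not tested. Whether replicate numbers pair the libraries could not be decided. The deviations of same-numbered libraries correlated at −0.055 and −0.025, but with 2 pBABE libraries the pBABE deviations are mirror images of each other. The replicate block left Rgs20 (edgeR adjusted p = 0.000459) and Rgs17 (0.000775) called, and caMNK replicate 3 had no pBABE library in its block. Rgs4 (14 counts in all), Rgs14 (329), Rgs2 (705) and Rgs20 (928) had the fewest reads of the members.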

Other observations

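Neighbouring genes were looked up around the RGS genes that rose. The nearest tested protein-coding genes, 2 on each side, were not called for Rgs20, Rgs17 or Rgs5. Beside Rgs20, the elongation factor gene Tcea1, which shares reads with Gm37988 and Gm6104, showed a log2 fold change of −0.17 (edgeR adjusted p = 0.437) and the autophagy gene Rb1cc1 0.02 (0.955); Gm37988 was at −0.17 (0.397) and Atp6v1h at 0.10 (0.522). Beside Rgs17, the cell cycle gene Fbxo5 had 0.31 (0.0622), the translation release factor gene Mtrf1l −0.10 (0.651), the scaffold gene Cnksr3 −0.23 (0.229) and the immune ligand gene Ulbp1 −0.40 (0.156). Beside Rgs5, the kinetochore gene Nuf2 had 0.0075 (0.969), the steroid enzyme gene Hsd17b7 −0.05 (0.854) and the collagen receptor gene Ddr2 −0.24 (0.259). Rgs4 lies close to Rgs5 on chromosome 1, and Rgs8 lies beside Rgs16 there. In pBABE, Rgs16 was at 114.9 and Rgs8 at 0.0454 CPM per kilobase of merged exons.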
